A study of Mus musculus with 16 samples.

Results

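The heart response to a 24 h fast was described here from the fasting and the fed heart library of a mouse tissue series, which are 2 of its 16 RNA-Seq libraries and are those that the labels name heart. The study collected heart, skeletal muscle, liver, kidney, lung, spleen and both kinds of adipose tissue, 8 tissues in all, from fed and from fasting animals, and asked how RNA abundance and processing differ between organs and between the extremes of the caloric cycle. Both groups were male C57BL/6 mice with no genetic alteration, bought at 12 weeks of age and given at least 10 to 14 days to settle before use. The fed group had standard chow at will, the fasting group had none for 24 h, and all were killed at 10 in the morning. Equal amounts of tissue from the 3 mice of a group were pooled, so that each tissue and treatment has 1 library. No value below therefore has a replicate error, and a test on the counts of the fasting and the fed library compares those libraries, not the conditions.

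The working heart takes most of its energy from fatty acids and can also burn glucose, lactate and ketone bodies. In fasting, insulin falls, glucocorticoids rise and adipose tissue releases fatty acids, which reach the heart muscle cell through lipoprotein lipase and the transporter CD36. Fatty acids also activate the nuclear receptor PPARα, whose targets include pyruvate dehydrogenase kinase 4, the enzyme that shuts pyruvate out of the mitochondrion's oxidation, while the FoxO factors, held inactive by insulin, drive genes of autophagy and protein breakdown.

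The fed heart library held 17215802 counts and the fasting heart library 15258447, within the range of 14245178 to 36069968 over the series. Levels are given as CPM, the reads of a gene in every 1000000 of its library, and 3 counts, used as the detection floor, correspond to 0.174 CPM in the fed and 0.197 CPM in the fasting library. All 37 genes of the mitochondrial chromosome have 0 counts, so that each CPM is relative to a total without them. The heart muscle markers fitted the label. Myh6, the cardiac α-myosin heavy chain (chr14:54941921-54966927, GRCm38), stood at 30766 CPM in the fed and 31097 CPM in the fasting library, and at no more than 529 CPM in any library of another tissue. Tnnt2, cardiac troponin T (chr1:135836354-135852260), stood at 5362 and 5542 CPM. Neither marker was called different between the heart libraries (log2 fold changes of 0.02 and 0.05). In a pooled organ, fewer cells of a type and less RNA per cell cannot be told apart.

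A gene was called when the log2 fold change, computed on CPM + 0.01, exceeded 0.5 in size and Fisher's exact test on the 2 libraries gave an unadjusted p-value under 0.01, the thresholds of the study. Of 26026 genes with a count in heart, 1126 were called higher in fasting (4.33%) and 1509 lower (5.8%). Among the 15135 genes with at least 1 CPM in 1 heart library these shares were 7.01% and 9.65%, which is the background for most of the genes below. The median log2 fold change of these 15135 genes was -0.07. With the TMM factors of edgeR in place of the totals, 1338 genes were called higher (5.14%) and 1240 lower (4.76%), and 2366 genes were called in the same direction by both scalings. If the pools are assumed to vary with a coefficient of variation of 0.2, edgeR's exact test calls 310 genes higher (1.19%) and 256 lower (0.984%). The 12 largest rises among genes with at least 10 CPM included those of Angptl4, Pdk4, Mt2, Hmox1, Fam107a, Tcf23, Slc10a6, Myc, Ccn2 and Acot1, and their log2 fold changes ran from 2.56 to 4.25. The 12 largest falls were those of Myl7, Tfrc, Apln, Myl4, Plekhh1, Gm10435, Klhdc8a, Lingo3, Fgf16, Tuba4a, 1810034E14Rik and Arhgef19, from -2.33 to -3.97. All 24 were also called at an assumed coefficient of variation of 0.4.

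**Figure D1:**
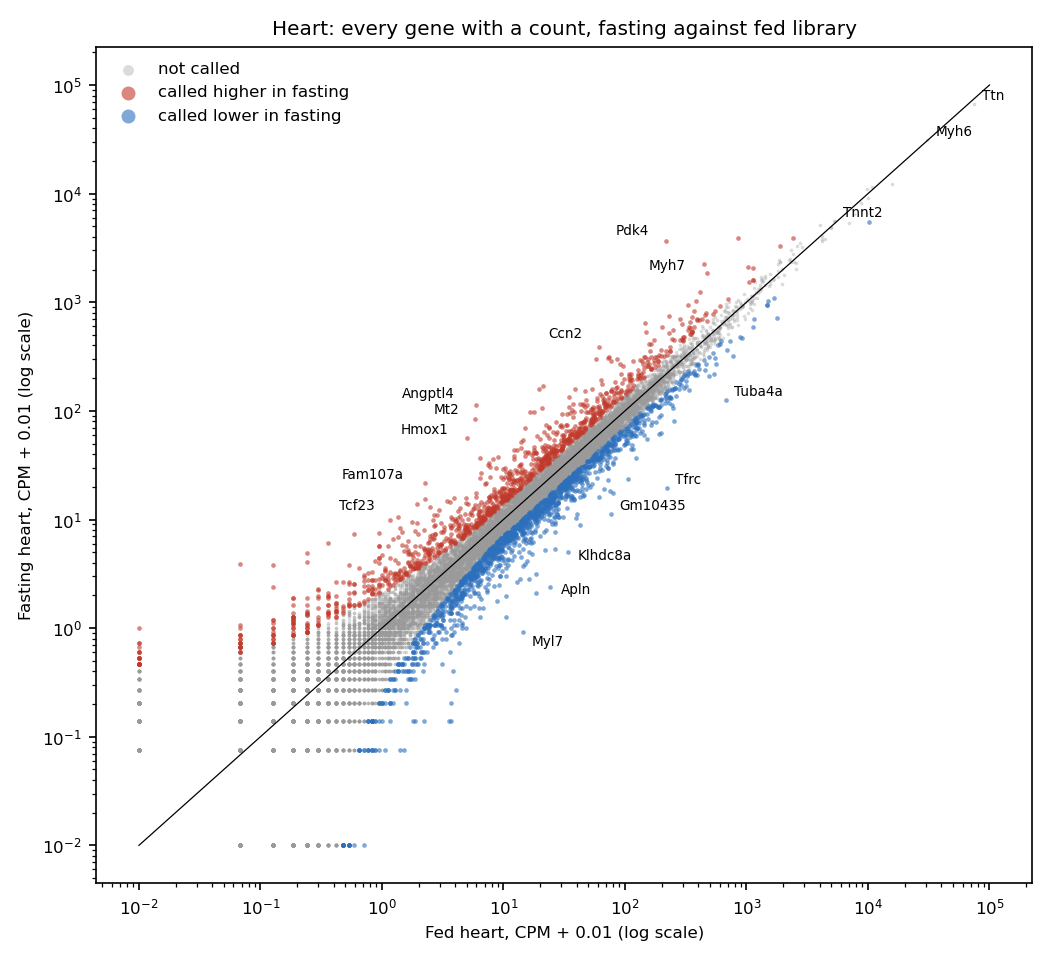
Level of every gene in the fed heart library (horizontal axis, CPM + 0.01, log scale) against the fasting heart library (vertical axis, same unit). Each point is a gene, red where called higher in fasting, blue where called lower and grey where not called; the line marks equal levels, Myh6, Tnnt2 and Ttn lie close to it, and Pdk4 and Angptl4 stand farthest above it among the abundant genes.

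Many targets of PPAR, the receptor family that drives fatty acid use, rose. Of 25 PPAR target genes with a count, 16 were called higher and none lower, with a median log2 fold change of 0.75. The share called higher was 4.33% of all genes and 7.01% of those with at least 1 CPM. Pdk4 (chr6:5483351-5496309) rose from 216 to 3673 CPM, a 17 (95% interval 16.5 to 17.6) fold difference. The interval here and below is the exact 95% interval of the ratio of counts, and it covers counting error only. Angptl4, a secreted inhibitor of lipoprotein lipase (chr17:33773750-33781830), rose from 5.98 to 114 CPM, or 19.1 (95% interval 15.7 to 23.6) fold. The mitochondrial uncoupling protein gene Ucp3 rose from 38.6 to 160.1 CPM, and Ucp2 from 30.1 to 70.6 CPM. The acyl-CoA thioesterases Acot1 and Acot2, which release free fatty acids from CoA, both rose. Acot1, the cytosolic form, went from 16.6 to 97.6 CPM, and Acot2, the mitochondrial form, from 91.7 to 269 CPM. Both lie side by side on chromosome 12 and are close in sequence, and reads shared between them may have been split or dropped in counting.

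Genes of uptake and of entry into the mitochondrion were called in part. The fatty acid transporter Cd36 rose from 2433 to 3921 CPM (log2 fold change 0.69), and the transport protein Slc27a1 from 157 to 416 CPM (1.41). Lipoprotein lipase (Lpl), at 4017 and 5128 CPM, and the intracellular carrier Fabp3, at 2777 and 3484 CPM, were not called. The carnitine palmitoyltransferase Cpt1a, which commits fatty acids to the mitochondrion, rose from 74.1 to 115 CPM. Cpt1b, the muscle form, was counted at only 6.74 and 10.3 CPM; 4075 of its exon bases are shared with Gm44502, an annotated gene on the same strand that has 0 counts in both heart libraries, so its level and its call are uncertain. Of the 21 genes of mitochondrial β-oxidation, 3 were called higher (Cpt1a, Cpt1b and Eci2) and none lower. The median was 0.24. Hadha, the α subunit of the trifunctional protein, stood at 1819 and 2228 CPM, a log2 fold change of 0.29.

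Of 20 genes of lipid droplets, lipolysis and triglyceride handling, 8 were called higher and 3 lower with totals, and 9 and 2 with TMM factors, by which Fitm1, at 80.2 and 56.7 CPM, was no longer called. Both lipases that open stored triglyceride rose: Pnpla2, adipose triglyceride lipase, from 202 to 597 CPM, and Lipe, hormone-sensitive lipase, from 42.7 to 116 CPM. G0s2, an inhibitor of adipose triglyceride lipase, fell from 43.7 to 23.1 CPM. The droplet coat genes Plin2 (63.6 to 194 CPM), Plin4 (359 to 729 CPM) and Plin3 rose, and Plin5 was at 124 and 172 CPM, called with TMM factors but not with totals. The adipocyte marker list was at 4.30 CPM in sum in the fed and 1.05 CPM in the fasting library, and the 3 brown adipocyte markers at 20.7 and 31.0 CPM in sum, of which Cidea, at 20.3 and 30.0 CPM, was called higher. The part of fat tissue in these rises was not tested. Adipoq, the adipocyte hormone adiponectin, was at 0.871 and 0.262 CPM.

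Around pyruvate, Pdk4 was the only one of the 14 genes listed that was called with totals, and Pdk1, at 285 and 400.2 CPM, was called in addition with TMM factors. Pdha1, the catalytic subunit of pyruvate dehydrogenase, stood at 1410 and 1443 CPM, and the pyruvate carrier Mpc1 at 203 and 220.1 CPM. In fed heart the level per kilobase of gene model was higher for Pdk2 than for Pdk4 (96.1 against 61.5 CPM per kb), and in fasting heart the order was turned (109 against 1046 CPM per kb).

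Of 29 genes of glucose uptake, glycolysis and glycogen, 4 fell and 3 rose. Hk2, the insulin-induced hexokinase, fell from 490.2 to 209 CPM (2.34 (2.25 to 2.44) fold lower), and Hk1 from 196 to 112 CPM. Pfkfb2, the cardiac enzyme that makes the activator of phosphofructokinase, fell from 105 to 50.8 CPM, while its relative Pfkfb3 rose from 9.41 to 17.4 CPM and Pfkfb1 from 11.6 to 17.8 CPM. Pfkfb2 shares 13153 exon bases with Gm29427, an annotated gene on the same strand with 15 and 19 counts, so its level and its call are uncertain. Ppp1r3c, which targets a phosphatase to glycogen and favours its synthesis, fell from 199.7 to 91.4 CPM, and the glycogen phosphorylase Pygb rose from 1052 to 1547 CPM. Pygm, the muscle phosphorylase, was at 1328 and 1322 CPM and was not called. The insulin-responsive glucose transporter Slc2a4 was at 449 and 321 CPM (log2 fold change -0.48, not called). Aldoa, the glycolytic gene with the highest CPM, was at 2304 and 2354 CPM.

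Oxct1, the enzyme through which the heart burns ketone bodies, fell from 1678 to 1097 CPM; 2450 of its exon bases are shared with BC037032 on the opposite strand. Liver transcripts were higher in the fasting heart library. All 4 hepatocyte markers were called higher, from 17.0 to 65.9 CPM in sum, and Alb, serum albumin, went from 14 to 51.4 CPM. Liver RNA at the share set by Alb (0.0220% in fed and 0.0987% in fasting) would carry 1.22 and 6.12 CPM of Ahsg, the liver plasma protein fetuin-A, into the heart libraries, where it was measured at 2.50 and 13.0 CPM. For Apoa1 the same share would carry 1.21 and 7.45 CPM, and 1.10 and 5.70 CPM were measured. For Ttr it would carry 0.992 and 2.42 CPM, and 0.929 and 4.39 CPM were measured. The source of these liver transcripts was not tested.

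**Figure D2:**
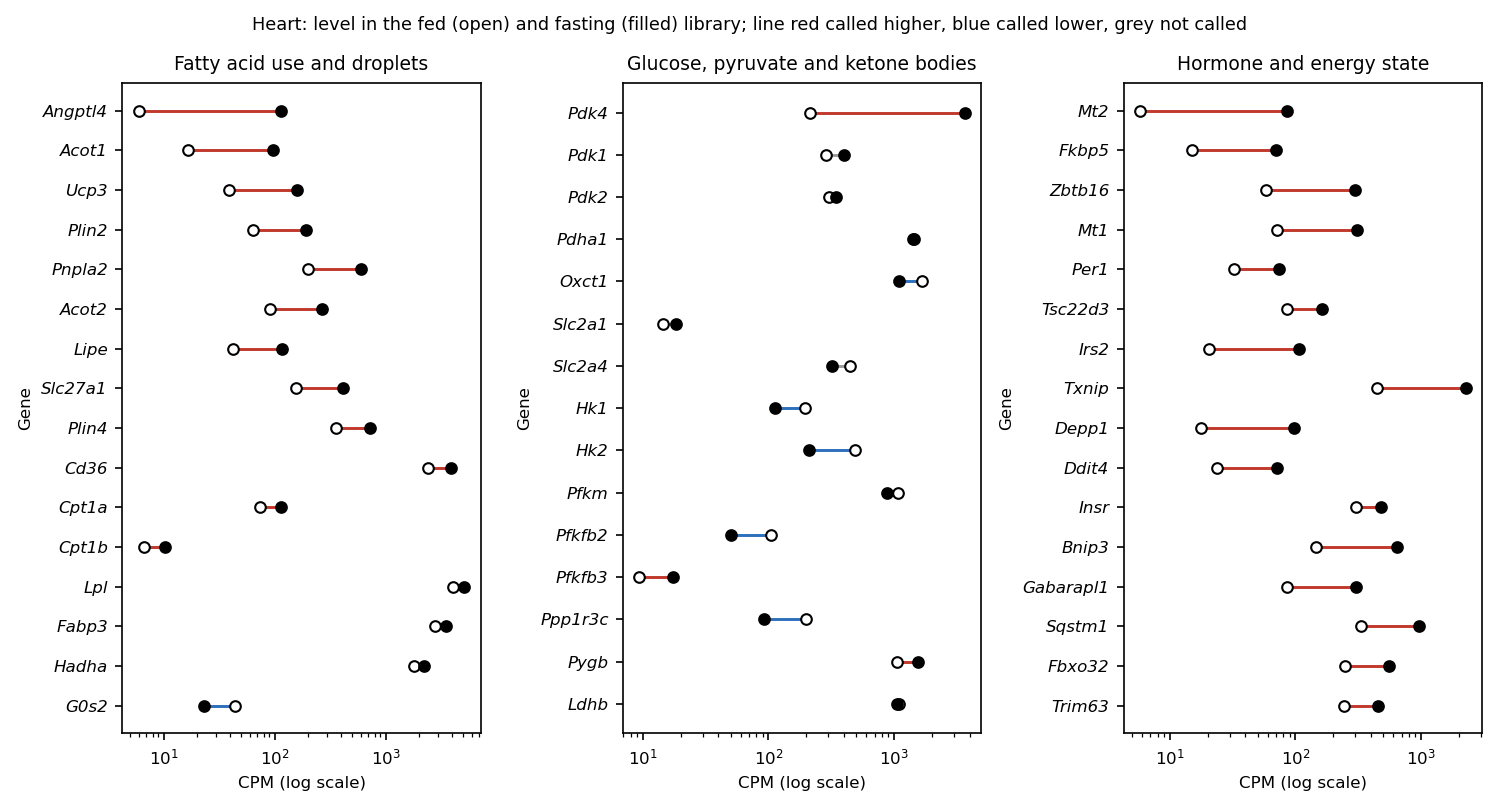
Level of selected genes in the fed (open circle) and the fasting (filled circle) heart library, in CPM on a log scale, for fatty acid use, for glucose, pyruvate and ketone bodies, and for hormone and energy state. The line is red where the gene was called higher in fasting, blue where called lower and grey where not called. Pdk4 crosses from 216 to 3673 CPM while Pdha1 keeps its place. All 16 genes chosen for the right panel lie higher in fasting. In the full lists, 2 of 15 glucocorticoid genes and 2 of 20 FoxO genes lie lower.

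Most of the genes listed as responding to glucocorticoids rose. Of 15 listed genes, 13 were called higher and 1 lower, with a median log2 fold change of 1.54 over the list. Among all genes with at least 1 CPM, 7.01% were called higher. At an assumed coefficient of variation of 0.2, 9 of the list remained called higher. The metallothioneins, small metal-binding proteins, rose: Mt2, with the largest change of the list, from 5.81 to 85.1 CPM and Mt1 from 71.9 to 308 CPM. Fkbp5, a co-chaperone of the glucocorticoid receptor, rose from 14.9 to 69.9 CPM, and Zbtb16, a zinc finger factor, from 57.8 to 297 CPM. Tsc22d3, the glucocorticoid-induced leucine zipper, rose from 85.1 to 163 CPM. The receptor itself, Nr3c1, fell from 169 to 117 CPM with totals (log2 fold change -0.54) and was not called with TMM factors.

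Of 20 genes of FoxO and energy stress, 12 were called higher and none lower, and 8 remained called at an assumed coefficient of variation of 0.2. The share called higher was 7.01% of all genes with at least 1 CPM. Txnip, an inhibitor of glucose uptake and of thioredoxin (chr3:96557957-96561883), rose from 447 to 2260 CPM, 5.06 (95% interval 4.93 to 5.19) fold. Irs2, an adaptor of the insulin receptor, rose from 20.7 to 107 CPM, and the insulin receptor gene Insr from 303 to 476 CPM. Depp1 rose from 17.8 to 97.1 CPM. Eif4ebp1, the repressor of cap-dependent translation, rose from 53.4 to 159 CPM, and Ddit4, an inhibitor of mTORC1, from 23.7 to 71.8 CPM. Foxo3 rose from 143 to 251 CPM, while Foxo1, at 28.7 and 36.9 CPM, was not called. Ppargc1a, the coactivator of mitochondrial genes, was at 166 and 174 CPM. Of the 18 genes of insulin and growth factor signalling, which share Irs2 and Insr with this list, 3 rose and 4 fell, among the latter Akt1 (165 to 109 CPM).

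A few genes of autophagy and protein breakdown rose and most were not called. Of 25 autophagy genes, 5 were called higher and 1 lower. Bnip3, a receptor for removing mitochondria, rose from 145 to 646 CPM, Gabarapl1, a membrane conjugate of the autophagosome, from 86.1 to 302 CPM, and the cargo adaptor Sqstm1 from 329 to 953 CPM. The 1 lower gene, Atg5, at 23.2 and 15.8 CPM, was not called with TMM factors. Among 14 ubiquitin ligases and growth inhibitors of muscle, 5 rose and 2 fell, Trim55 from 70.1 to 42.9 CPM and Asb2, which was not called with TMM factors, from 605 to 414 CPM. Fbxo32, or atrogin-1, went from 249.7 to 556 CPM, Trim63, or MuRF1, from 244 to 456 CPM, and Fbxo31 from 95.7 to 258 CPM. In skeletal muscle the log2 fold changes of Fbxo32 and Trim63 were 2.78 and 3.41, against 1.16 and 0.90 in heart, a difference that 1 library of each kind does not test.

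Of 18 immediate early genes, 11 were called higher and 1 lower, against 7.01% and 9.65% of all genes with at least 1 CPM. The median was 0.84. Myc rose from 2.27 to 15.5 CPM, Zfp36, which destabilises cytokine messages, from 19 to 58.7 CPM, and Atf3 from 7.2 to 21.7 CPM. Fos and Egr1, among the fastest of this class, were not called. Fos stood at 11.5 and 11.3 CPM and Egr1 at 16.9 and 18 CPM. Of 19 clock genes, 7 were called higher and 3 lower, against the same 7.01% and 9.65%. Per2 rose from 7.61 to 32.8 CPM and Per1, which is also a glucocorticoid target, from 32.4 to 74.6 CPM. Arntl, the positive arm of the clock, was at 39.4 and 27.3 CPM and Dbp at 34.3 and 24.1 CPM, both lower with totals and not called with TMM factors.

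Of 25 sarcomere genes, which build the contractile apparatus, 3 were called higher and 2 lower, shares near those of all genes with at least 1 CPM, and the median was -0.04. Ttn, the giant titin, took 7.4% of the fed library and 6.66% of the fasting one. Myh7, the slow β-myosin heavy chain (chr14:54970684-54994626), rose from 471 to 1879 CPM, 3.99 (95% interval 3.89 to 4.09) fold. Per kilobase of gene model, Myh7 made up 1.18% of Myh6 and Myh7 together in the fed library and 4.5% in the fasting library. The myosin genes are neighbours of near-identical sequence, and exons of Myh7 overlap annotated genes on the opposite strand. One of these, Mhrt, with 1140 shared bases, went from 69.8 to 48.9 CPM; how shared reads were assigned was not tested. Transcripts typical of skeletal muscle were also counted, with Myh4, the fast IIb myosin, at 112 and 202 CPM. Of 8 fast skeletal muscle markers, 5 were called higher, and the source of these reads was not tested. At the share set by Myh4, skeletal muscle would carry 0.17 and 0.10 CPM of Myh7 and 0.260 and 8.46 CPM of Pdk4 into the heart libraries. Myh7b fell from 144 to 60.1 CPM, and Actc1, the cardiac α-actin, from 10124 to 5489 CPM (log2 fold change -0.88).

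Called higher were 7.01% of all genes with at least 1 CPM, and 6 of the 8 genes used as signs of cardiac stress. Beside Myh7 these were Ankrd1, a titin-bound repressor (1025 to 2111 CPM), Nppb, the B-type natriuretic peptide (153 to 300.1 CPM), Rcan1, the calcineurin target (94.6 to 179 CPM), Xirp1, and Gdf15, which stayed low (0.232 to 1.11 CPM). Skeletal actin, Acta1, stood at 351 and 278 CPM and was not called. At an assumed coefficient of variation of 0.2, Myh7 alone of the 8 stayed called.

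Many genes of ion channels and calcium handling fell. Of 28 with a count, 14 were called lower and none higher with totals, against 5.8% of all genes called lower and 9.65% of those with at least 1 CPM. With TMM factors, 12 were called lower and 1 higher, against 4.76% of all genes called lower. The list median was -0.57. Gja1, connexin 43 of the gap junctions (chr10:56377330-56402513), fell from 536 to 221 CPM, 2.42 (2.33 to 2.52) fold lower. Kcnq1, a potassium channel of repolarisation, fell from 56.3 to 27.5 CPM. The pacemaker channel Hcn4 fell from 21.6 to 7.6 CPM and Hcn2 from 24 to 14.4 CPM. Casq2, calsequestrin of the sarcoplasmic reticulum, fell from 1127 to 596 CPM, and Adrb1, the main cardiac β-adrenergic receptor, from 25.4 to 13.7 CPM. The members with the highest CPM did not pass the threshold: the calcium pump Atp2a2 stood at 15798 and 12176 CPM, its inhibitor Pln at 6946 and 5419 CPM and the release channel Ryr2 at 4404 and 3805 CPM. At an assumed coefficient of variation of 0.2, the 2 members Gja1 and Hcn4 stayed called.

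Atrial genes are kept apart, because their level in a whole heart depends on how much atrium was in the sample. Of 12 atrial genes with a count, 7 were called lower and 1 higher, against 9.65% and 7.01% of all genes with at least 1 CPM. Myl7, the atrial regulatory light chain (chr11:5896637-5898782), fell from 14.5 to 0.918 CPM, the largest fall among genes with at least 10 CPM. Myl4, the atrial essential light chain, fell from 18.5 to 2.1 CPM and Sln, sarcolipin, from 3.54 to 0.131 CPM, the latter under the floor of 3 counts in the fasting library. Mybphl and Dkk3 were called lower as well, by -2.47 and -1.30 on the log2 scale. Kcnj3 and Kcnj5, subunits of the acetylcholine-gated potassium channel, fell by less (-0.59 and -0.77). Kcna5 rose from 22.9 to 41.6 CPM. Nppa, the atrial natriuretic peptide, was at 113 and 119 CPM and was not called, and the atrial factors Nr2f1 and Nr2f2 were not called either. Bmp10 had 1 and 4 counts. Per kilobase of gene model, Myl7 stood at 24.6 CPM in the fed and 1.56 CPM in the fasting library, and Myl2, the ventricular regulatory light chain, at 3949 and 3322 CPM.

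Atrial genes are also read in lung, which holds sleeves of heart muscle around its veins, and there Myl7 went from 88.4 to 35.5 CPM, Sln from 24.8 to 10.8 CPM and Nppa from 197.6 to 27.4 CPM, with Myh6 at 529 and 326 CPM. Of the 4 ventricular genes, Irx4 fell from 44.1 to 17.9 CPM and the others were not called. Which of the falls of channel genes follow the atrial genes was not tested. Hcn4, Gja1 and Kcnj5 are found in the atria or the conduction system as well as, for Gja1, in the ventricle. Among markers of the heart's other cells, 2 of 9 endothelial markers were called lower (Kdr and Egfl7, the latter sharing 3178 exon bases with Gm20532 on the same strand), 2 of 7 fibroblast markers (Col1a1 and Lum), 1 of 7 of pericytes and smooth muscle (Acta2), and none of 5 erythroid markers. Of 4 lung epithelium markers, 2 were called higher, and the list went from 44.1 to 63.7 CPM in sum. Of 5 mesothelium markers, Upk3b was called lower.

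**Figure D3:**
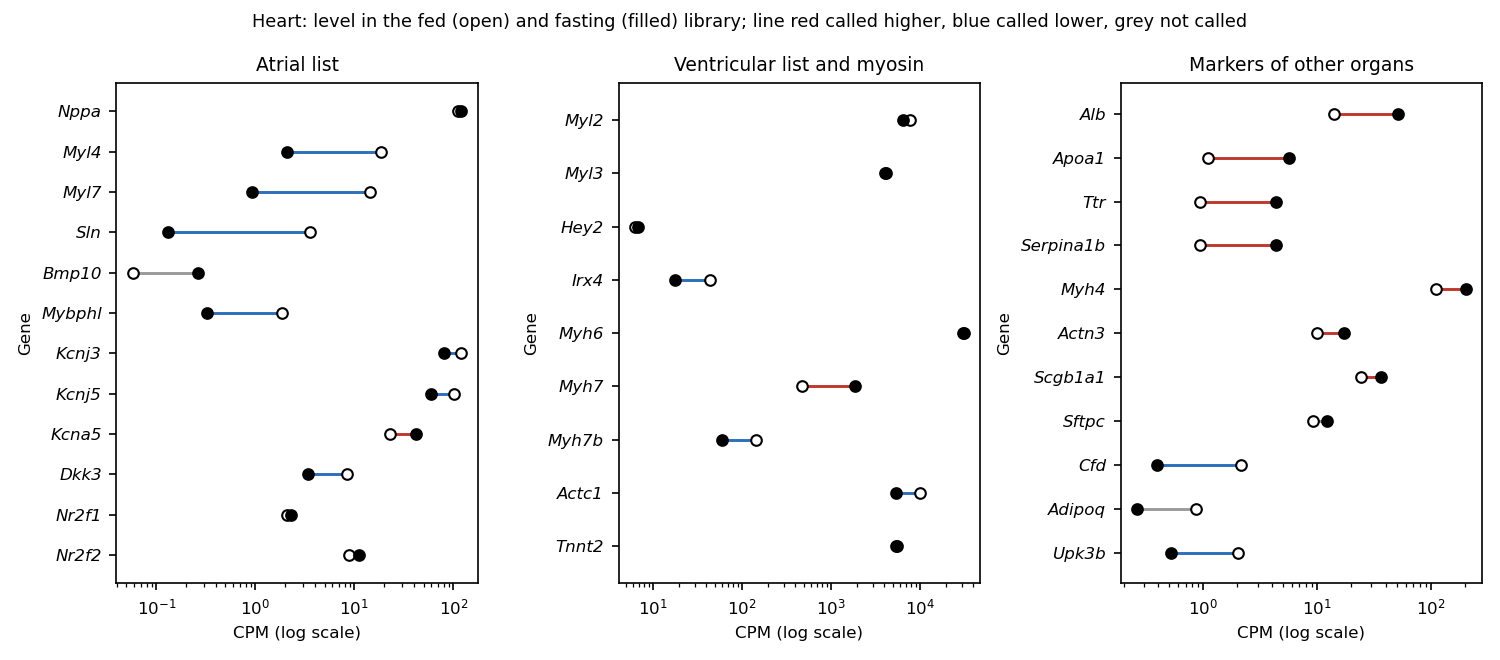
Level in the fed (open circle) and the fasting (filled circle) heart library, in CPM on a log scale, of the 12 atrial genes, of ventricular and myosin genes, and of markers of liver, skeletal muscle, lung, fat and mesothelium. Lines are red where called higher in fasting, blue where called lower and grey where not called; Myl4, Myl7 and Sln shift left, Nppa does not, and the 4 liver markers and Myh4 shift right.

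Chaperones of the endoplasmic reticulum (ER), which fold secreted and membrane proteins, fell in most cases. Of 14 listed genes, 9 were called lower and 1 higher by either scaling, with a median of -0.61. With totals, 9.65% of all genes with at least 1 CPM were called lower and 7.01% higher. Hspa5, or BiP, the central ER chaperone, fell from 769 to 323 CPM, 2.38 (2.3 to 2.46) fold lower. Hsp90b1 fell from 399 to 263 CPM, Calr, calreticulin, from 318 to 187 CPM, Hyou1 from 88.2 to 44 CPM and Manf from 36.2 to 15.8 CPM. Herpud1, which serves the degradation of ER proteins, went the other way, from 164 to 412 CPM. Dnajc3, Dnajb11, Xbp1 and Creld2 were lower by 0.21 to 0.33 on the log2 scale and were not called. At an assumed coefficient of variation of 0.2, Hspa5, Manf and Sdf2l1 stayed called lower.

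Many of these genes carry the ER stress element in their promoters, which the factors ATF6 and XBP1 are known to bind. The element was searched as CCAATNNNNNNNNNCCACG on both strands of the RefSeq promoters of GRCm38.p6, 250 bases before to 50 after the start of each gene. Promoters were at hand for 12 of the 14 genes, and 6 of these held the element, against 39 of all 32851 promoters of that length (0.119%). That share describes the kind of gene listed and is no result about the change in fasting. The stretches are shown so that the element can be compared between members that fell and members that were not called, with the fixed letters of the element in capitals, 5′ to 3′ on the strand of the gene. CGTGG before ATTGG is the element read from the other strand.
Hspa5 (chr2:34772020-34772048, + strand): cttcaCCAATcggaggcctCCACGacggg
Calr (chr8:84847070-84847098, - strand): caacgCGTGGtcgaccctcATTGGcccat
Hsp90b1 (chr10:86705633-86705661, - strand): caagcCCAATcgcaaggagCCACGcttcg
Hsp90b1 (chr10:86705528-86705556, - strand): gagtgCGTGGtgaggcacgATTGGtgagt
Pdia6 (chr12:17266486-17266514, + strand): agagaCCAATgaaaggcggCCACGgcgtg
Dnajc3 (chr14:118937822-118937850, + strand): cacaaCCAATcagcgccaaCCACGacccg
Creld2 (chr15:88819515-88819543, + strand): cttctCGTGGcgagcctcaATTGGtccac
A match is a description of these letters and not a bound site. Members with the element fell (Hspa5, Calr, Hsp90b1 and Pdia6) or were not called (Dnajc3 and Creld2) with totals. Pdia3, Pdia4 and Sdf2l1, which also fell, Herpud1, which rose, and Dnajb11 and Xbp1, which were not called, do not hold these letters in this window. Hyou1 and Manf were not in the promoter table.

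Of 23 genes of cholesterol synthesis and uptake, 10 were called lower and 1 higher with totals, and 9 and 1 with TMM factors. With totals, 9.65% of all genes with at least 1 CPM were called lower. Cyp51, the lanosterol demethylase, fell from 23 to 13.5 CPM. Sqle, squalene epoxidase, fell from 2.67 to 1.05 CPM. The exception, Fdft1, rose from 43.8 to 99.3 CPM; it shares 2319 exon bases with Ctsb on the opposite strand, which had 7715 and 5531 counts. Of 16 genes of fatty acid synthesis and desaturation, 2 rose and 2 fell. The heart desaturase Scd4 rose from 14.6 to 53.9 CPM and Acacb, the mitochondrial acetyl-CoA carboxylase that makes the inhibitor of Cpt1, from 605 to 924 CPM. Scd2 fell from 37.2 to 15.7 CPM and Pnpla3 from 2.21 to 0.131 CPM, the latter under the floor in fasting. Fasn, fatty acid synthase, was at 46.6 and 42.5 CPM.

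Of 22 genes of the extracellular matrix, 8 were called lower and 3 higher. Of the 11 collagen genes among them, 7 fell, and none rose. For this and the next lists, 9.65% of all genes with at least 1 CPM were called lower and 7.01% higher. Col3a1 fell from 334 to 156 CPM, Col15a1 from 124 to 36.6 CPM and Col1a1 from 85.3 to 44.5 CPM. Ccn2, connective tissue growth factor (chr10:24595442-24598683), rose from 60.8 to 389.6 CPM, 6.41 (95% interval 6.0 to 6.85) fold, Timp1, an inhibitor of metalloproteinases, from 1.45 to 7.73 CPM, and the crosslinking enzyme Lox from 5.87 to 13.6 CPM. Of the 7 fibroblast markers, Col1a1 and Lum fell with this list, which also holds them, and the other 5 were not called, among them Pdgfra (77 and 77.5 CPM). Genes of cell division were scarce, at 96.9 CPM in sum in the fed and 80.9 CPM in the fasting library; 9 of 29 with a count were called lower with totals, 7 with TMM factors, and Mki67 stood at 11.3 and 11.5 CPM. Of 7 genes of MHC class II antigen presentation, 5 were called lower, Cd74 from 112 to 63.8 CPM. The B cell markers, of cells that carry these molecules, went from 29.0 to 19.1 CPM in sum, with 1 of 5 called lower (Ighm), and their part in the fall was not tested. The macrophage markers gave 1 called higher (Cd163) and 1 lower of 9, and the latter, Adgre1, was not called with TMM factors. Of 18 interferon response genes, 3 fell and 1 rose.

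The respiratory chain and ribosomal protein genes had no called members. None of 81 nuclear genes of the respiratory chain was called by totals, by TMM factors or at an assumed coefficient of variation of 0.2, and their median was -0.06, or -0.0034 with TMM factors. None of 87 cytosolic ribosomal protein genes was called in these settings, with medians of 0.07 and 0.13. Of 38 proteasome genes, 2 rose (Psmd11 and Psmd4) and 1 fell, the immune subunit Psmb9. Of 16 heat shock and cold-inducible genes, 4 rose, among them Bag3 (219 to 356 CPM) and Cirbp (42.2 to 69.1 CPM), and Hsph1 fell. Of 19 genes of ATF4 and amino acid stress, 4 rose and 1 fell. Chac1, the glutathione-degrading member, went from 2.67 to 6.68 CPM, and Asns, asparagine synthetase, stood at 2.61 and 1.51 CPM and was not called. Over the 30 lists, 104 of 671 genes with a count were called higher and 93 lower, against 4.33% and 5.8% of all genes with a count. The lists were chosen with earlier results of these data known, so the excess is no result of its own.

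**Figure D4:**
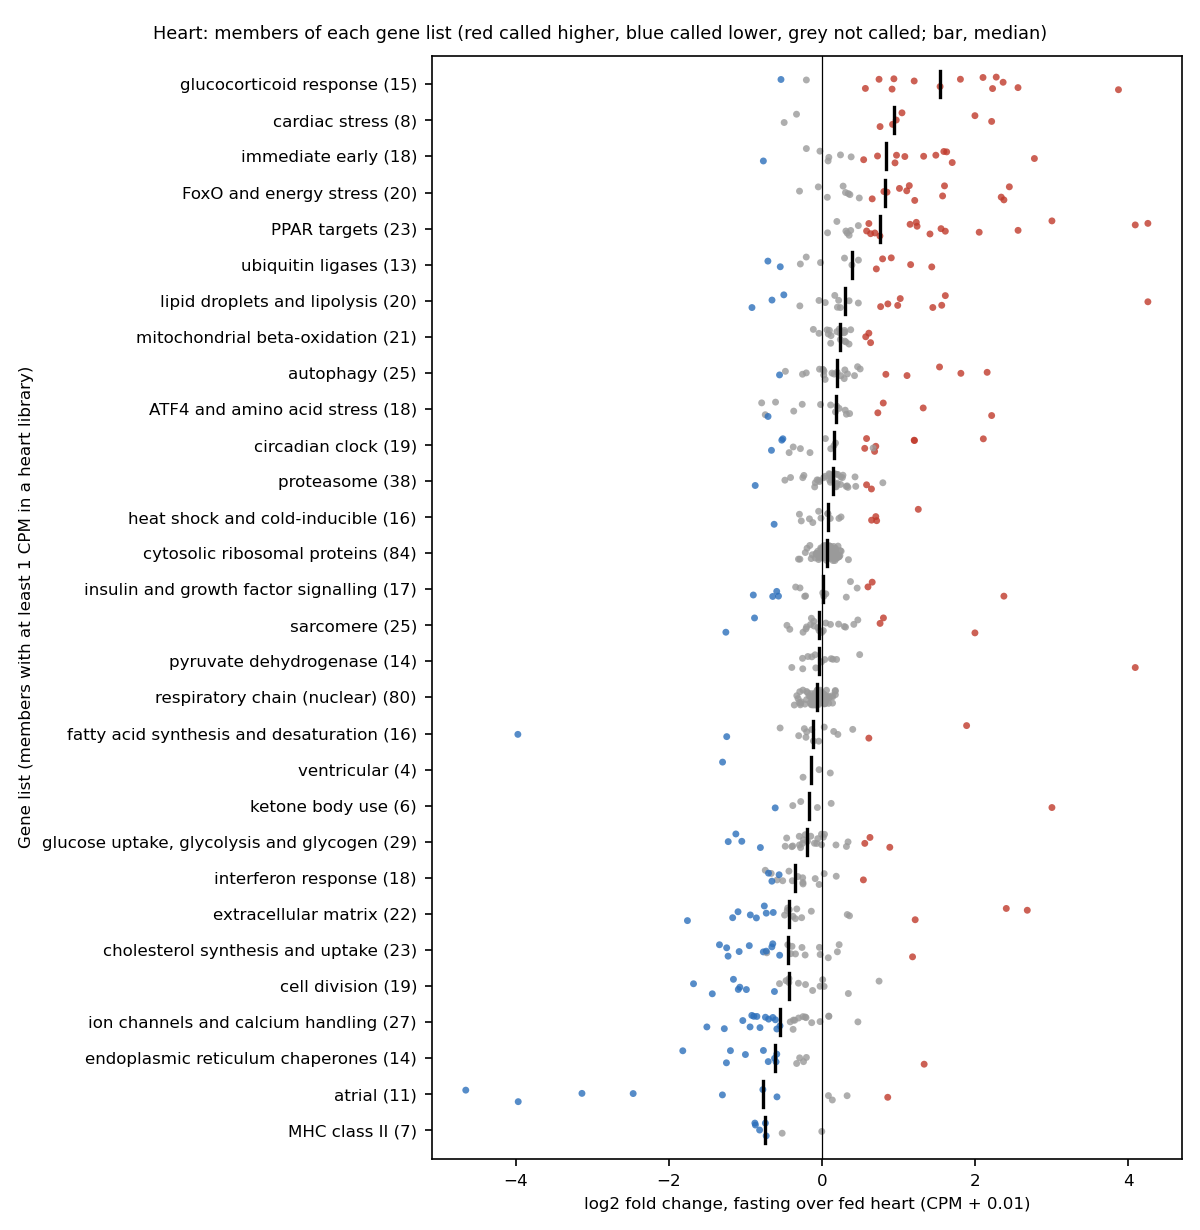
Log2 fold change (fasting over fed heart, on CPM + 0.01) of the members of 30 gene lists with at least 1 CPM in 1 heart library, 1 row per list ordered by the list median. Each point is a gene, red where called higher, blue where called lower and grey where not called, and the bar is the median of the points; the glucocorticoid list lies to the right, the ER chaperone, channel and atrial lists to the left, and the 80 respiratory chain and 84 ribosomal protein genes crowd around 0.

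Among the largest falls outside the atrial list was Tfrc, the transferrin receptor that brings iron into cells (chr16:32608920-32632794), which went from 222 to 19.4 CPM, 11.5 (10.2 to 12.9) fold lower. Apln, the peptide hormone apelin, fell from 24.3 to 2.36 CPM. Tuba4a, an α-tubulin, fell from 675 to 125 CPM, 5.39 (5.13 to 5.66) fold lower; it shares 2041 exon bases with Stk16 on the opposite strand, which had 372 and 259 counts. Fgf16, a growth factor gene of the heart, fell from 16.1 to 2.82 CPM. Klhdc8a fell from 33.7 to 5.05 CPM, Lingo3 from 18.5 to 3.15 CPM and Arhgef19 from 26.8 to 5.31 CPM. Gm10435 (76.5 to 11.3 CPM) shares exon bases with an annotated gene on the opposite strand, and Plekhh1 (10.5 to 1.25 CPM) shares 2786 exon bases with Pigh. Among the largest rises not yet described, Hmox1, heme oxygenase 1 (chr8:75093621-75100589), went from 5.0 to 56.5 CPM, 11.3 (95% interval 9.05 to 14.3) fold, Fam107a from 2.27 to 21.5 CPM, the transporter Slc10a6 from 1.92 to 13.9 CPM and Tcf23 from 1.34 to 10.6 CPM.

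To ask where the heart departed from the other organs, its log2 fold changes were set beside those of the other 7 tissues, which come from the same pools of mice. Pdk4 was higher in fasting in all 8 tissues, from 0.63 in liver to 4.24 in skeletal muscle, with 4.09 in heart. Angptl4 was higher in all 8 as well, and its change was largest in heart (4.25, against 3.38 in kidney and 2.53 in muscle). Acot1 changed less in heart (2.56) than in muscle (3.60) or white adipose (4.55). Tfrc was lower by 3.52 in heart, by 4.19 in brown adipose and by 2.40 in muscle, and changed by 0.73 or less in size in the other 5 tissues. Hmox1 changed by -0.20 to 1.10 in the other tissues, against 3.50 in heart. Hspa5 changed by -0.31 to 0.10, against -1.25 in heart, and Tuba4a by -0.95 to 0.32, against -2.43. Myh7, at 2.0 in heart, was lower by 1.54 in skeletal muscle. List medians over members with at least 1 CPM ranged, for ER chaperones, from -0.36 to 0.08 in the other tissues, against -0.61 in heart, and for immediate early genes from -0.40 to 0.17, against 0.84. For the glucocorticoid list the medians were 1.54 in heart and 1.55 in muscle, with 0.66 to 1.11 in the rest, and for cholesterol genes -0.45 in heart and -0.63 to -2.03 elsewhere.

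The difference itself was tested gene by gene with the 7 other tissue pairs as the measure of spread. In edgeR's quasi-likelihood fit of tissue and treatment over all 16 libraries, with 6 residual degrees of freedom, none of 23580 genes (0%) had a heart response different from the rest at an adjusted p-value under 0.05; the lowest adjusted p was 0.867, and 734 genes (3.11%) had an unadjusted p under 0.05. DESeq2's Wald test on the same model called 19 of the 7122 genes to which it gave an adjusted p, 15 of them higher in heart. These included Hmox1 (difference 3.08 ± 0.63 SE on the log2 scale, adjusted p = 0.00157), Ccn2 (1.71 ± 0.36, 0.00157), Rcan1 (1.16 ± 0.28, 0.0138), Hspa5 (-1.08 ± 0.22, 0.00157) and Tuba4a (-2.07 ± 0.43, 0.00161). Of the 19, 7 encode proteins that the liver secretes, such as Ttr and Apoa2, whose counts in the fasting heart library rose with Alb. Since the edgeR fit passed none, no gene is described here as changed in heart alone.

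**Figure D5:**
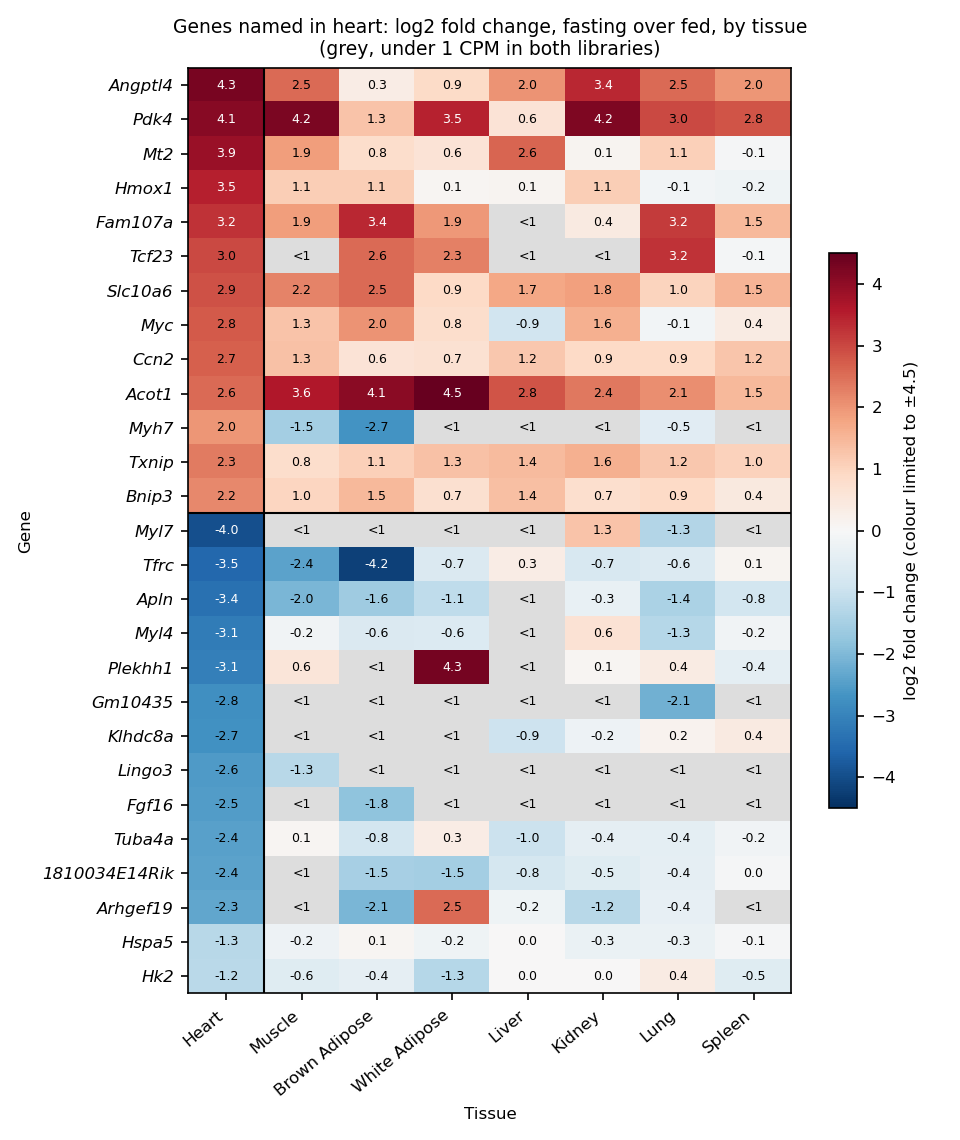
Log2 fold change (fasting over fed, on CPM + 0.01) of genes named in heart (rows) in each of the 8 tissues (columns), printed in each cell and shown in red for higher and blue for lower, with colour limited to ±4.5 and cells under 1 CPM in both libraries of a tissue in grey. Pdk4 and Acot1 are red in all tissues, while for Hmox1, Hspa5 and Tuba4a the heart column holds the largest change.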

How the data were processed

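Total RNA of pooled tissue was made into strand-specific libraries and read as paired ends of 100 bases. Per the labels and the paper's methods, the authors used fastp 0.23.2 for trimming, FastQC 0.11.8 for quality control, HISAT2 2.2.1.0 for alignment to the GRCm38 build and featureCounts of Subread 2.0 for gene counts on GENCODE release 24. The authors deposited these counts for each gene and library without normalization, together with a gene length, an other value that is no measurement. The strand setting of the counting, and whether a pair counted once, are not given in the sources used here.

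Of 55385 genes, 54487 matched a symbol of GENCODE release 21 with their version and 55144 without it. Counts were divided by library totals, and Fisher's exact test (two-sided) was run on the heart libraries, with no replicate behind it. The difference between heart and the other tissues was tested with edgeR 4.0.16 (R 4.3.3), with TMM factors, filterByExpr, the quasi-likelihood test and Benjamini-Hochberg adjustment, and with DESeq2 1.42.0 as an alternative; the common coefficient of variation was 0.226. On simulated libraries the Fisher step recovered 100 of 100 genes changed by 1 on the log2 scale, with 73 false calls among 26026 genes. These libraries were drawn with counting error only and no variation between pools. The 73 false calls therefore give no error rate for calls between the real pools. The edgeR step recovered 66 of 100 genes changed by 2 and 100 of 100 changed by 4, with 5 false calls among 23240. Its simulated counts had the coefficient of variation of 0.226 for every gene and no fasting change in the other tissues. Recovery in the real libraries, where genes and tissues vary, was not measured.

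The tissue pair, the 30 gene lists and the 17 marker lists were chosen with earlier results of these data known. Named were Myh6 and Tnnt2, the 12 largest rises and 12 largest falls among genes with at least 10 CPM in 1 heart library that both scalings called, in each list the 3 members with the highest CPM and the 3 largest called changes, all atrial genes, and the 2 highest markers of each type; genes beside these were named after their values were seen, and some genes that the rule names are not reported here. Alternatives were other scalings, pseudocounts, thresholds and filters, assumed coefficients of variation of 0.2 and 0.4, and leaving out tissues. Promoters were RefSeq's of GRCm38.p6. Tables and figures were made in Python 3.11.15 with pandas 2.3.3, scipy 1.17.1, numpy 2.4.6 and matplotlib 3.10.9.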

Additional observations from a re-analysis of the deposited data

Results flagged for a closer look

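Of 1595 called genes with at least 10 CPM in 1 heart library, 9 moved in heart against all 7 other tissues, so that every tissue pair other than heart had the opposite sign. How many genes would do so by sign alone was not tested, and no share over all genes was computed. The 9 are therefore a description and no evidence of a set that the heart regulates against other organs. Pygb, the brain-type glycogen phosphorylase that is also the heart's, is one of them: its log2 fold change was 0.56 in heart and -1.41 to -0.0092 elsewhere. Shisa4 was at 1.11 in heart (5.4 to 11.7 CPM) and -1.24 to -0.18 elsewhere. Myl12a, a non-sarcomeric regulatory light chain, was at 0.76 in heart (192 to 324 CPM) and -0.37 to -0.0045 elsewhere; it shares 207 exon bases with Myom1 on the opposite strand and 3834 with Myl12b on the same strand, so its level is uncertain. Paxx, a factor of DNA end joining, was at 0.61 in heart.

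The other 5 were lower in heart and higher elsewhere. Myocd, myocardin, the coactivator of cardiac and smooth muscle genes, was at -0.85 in heart (126 to 70.1 CPM) and 0.017 to 1.14 elsewhere. Lpin1, the phosphatidate phosphatase lipin 1, was at -0.66 in heart (368 to 234 CPM) and 0.38 to 1.44 elsewhere. Shb was at -0.62, Lama5, a laminin chain, at -0.57 and AI480526 at -0.54 in heart; the last was not called with TMM factors. In edgeR's test of the difference between heart and the other tissues the lowest adjusted p among these 9 was 0.867, while DESeq2's Wald test called Shisa4 (adjusted p = 0.0161) and Myl12a (adjusted p = 0.00157). The 9 were picked by their signs in these same libraries, so neither the ranges elsewhere nor these tests are separate support. For several of the 9 the nearest other tissue lay within 0.02 of 0, so the sign there rests on a small difference.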

How the results depend on the processing

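The counts of called genes, 1126 higher and 1509 lower, stayed within 1.5 times under the other scalings, a pseudocount of 1 CPM, a minimum of 1 CPM and Benjamini-Hochberg adjustment. Their balance turned with the scaling. Of the called genes with a count, 42.7% were higher with totals, 51.9% with TMM factors and 51.1% with DESeq2 size factors. A log2 fold change over 1 left 515 higher and 513 lower, an assumed coefficient of variation of 0.2 left 310 and 256, and one of 0.4 left 38 and 22. Of 121 genes named by the rule and called with totals, 120 were called in the same direction with TMM factors, 51 lost their call at a coefficient of variation of 0.2 and 89 at 0.4, and none changed sign. The median of the cell division list, -0.56, became -0.28 with a pseudocount of 1 CPM; no other list median moved by more than a small amount. The test of heart against the other tissues passed 0 genes in edgeR and under each edgeR alternative, leaving out any tissue included, and 19 with DESeq2's Wald test; the cause was not tested.

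No paired analysis was possible within heart because each treatment has 1 library there; the test against the other tissues paired the fasting and the fed library of each tissue. The pools are 2 groups of mice, so that their biological variation and the treatment cannot be told apart. No batch of library preparation is given in the sources used here. Genes near 3 counts rest on counting error alone.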

Other observations

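Genes of iron and heme moved around Tfrc; this set was written after the values were seen, and is no evidence of a direction of its own. Of 16 genes, 5 were called higher and 5 lower. Alas1, the rate-limiting enzyme of heme synthesis outside red cells, fell from 255 to 80.5 CPM, the iron importer Slc11a2 from 34.9 to 20.1 CPM and the endosomal ferrireductase Steap3 from 29.7 to 17.9 CPM. Hmox1, which breaks heme down, rose, as did the iron exporter Slc40a1, ferroportin, from 23.7 to 69.1 CPM, and the ferritin light chain Ftl1 from 142 to 270.3 CPM. Ftl1 shares 636 exon bases with Gm22133, an annotated gene on the same strand with 0 counts, so its level is uncertain. The ferritin heavy chain Fth1, at 462 and 557 CPM, was not called. Gclm, a subunit of the enzyme that limits glutathione synthesis, rose from 22.4 to 74.4 CPM.

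Of 11 tubulin genes, likewise gathered after Tuba4a was seen, 6 were called lower and none higher. Tuba8 fell from 197 to 62 CPM, Tubb4b from 192 to 109 CPM and Tuba1b from 43.9 to 21.4 CPM, while Tubb5 was at 105 and 74.5 CPM. Tuba1b shares 426 exon bases with Gm49450, an annotated gene on the same strand, so its level is uncertain. Tubulin genes are alike in sequence, and how reads shared among them were counted is not given in the sources used here. The apelin receptor Aplnr, chosen after its ligand Apln, fell from 74.6 to 18.4 CPM. Rhobtb1 rose from 77.4 to 288 CPM. Wnk1 fell from 888 to 483 CPM and Prkar1a, a regulatory subunit of protein kinase A, from 407 to 242 CPM.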
